A study of Mus musculus with 16 samples.

Results

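BMAL1 peaks were described at 6 genes of hepatic glucose handling: Slc2a2, Pck1, Pcx, Ppargc1a, Ppp1r3c and Irs2. The members were all intervals of the authors' merged peak table whose nearest gene was one of these 6, at any distance, which gave 22 of 7043 intervals and 6 of 5527 named genes. The 22 intervals held 35 peaks in the 8 BMAL1 peak lists. The genes had been selected on the peak calls and on the authors' -log10 q of these same lists, so calls, q values and fold enrichments at them are given as a description, with no test.

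The data were peak lists from BMAL1 chromatin immunoprecipitation and sequencing of mouse liver (C57bl6), 1 list for each combination of sex, treatment (misaligned or control) and time. Time was ZT12 or ZT0, in hours after lights on in a cycle of 12 h light and 12 h dark. The 16 samples were 8 BMAL1 and 8 IgG libraries, and the IgG libraries were not used here. Each group was thus 1 library, made from the pooled livers of 3 to 4 mice (8 to 16 weeks old), and no difference between libraries could be set against replicate error. Misaligned and control mice alike were moved from chow to a diet with 42% of calories from fat in week 1. The misalignment schedule is not given in the labels.

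The lists differed widely in length, which bears on every count below. The male lists held 5542 peaks in misaligned and 290 in control liver at ZT12, and 1864 and 373 at ZT0. The female lists held 221 peaks in misaligned and 141 in control liver at ZT12, and 1330 and 225 at ZT0. Read depth is unknown. The lowest local background ranged between 4.25 and 6.16 fragments over the 8 lists, and was 4.25 in male misaligned ZT12, the longest list. How closely this value follows depth depends on how the peaks were called and was not tested. The weakest peak of a list held between 14 (male misaligned ZT12) and 22 (female misaligned ZT12) fragments, so a site with fewer would not be listed.

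BMAL1 is a transcription factor of the circadian clock that pairs with CLOCK and binds DNA at the E-box. In liver the clock is known to shape when glucose is made, released and stored. During fasting, pyruvate carboxylase (Pcx) and cytosolic phosphoenolpyruvate carboxykinase (Pck1) feed gluconeogenesis, and the coactivator PGC-1 alpha (Ppargc1a) raises the transcription of such genes. GLUT2 (Slc2a2) carries glucose across the hepatocyte membrane in either direction. After feeding, the insulin receptor substrate IRS2 (Irs2) passes on the insulin signal, and the protein phosphatase 1 targeting subunit PTG (Ppp1r3c) promotes glycogen synthesis.

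The promoters of 4 of these genes lay under or partly under a BMAL1 interval. Their RefSeq windows (GRCm38.p6, 250 bases before to 50 after the transcription start, in the direction of the gene) are shown because they hold, or lack, the letters that BMAL1 is known to bind. Capitals mark the E-box CACGTG and the related E'-box CACGTT or AACGTG, searched on both strands; the motifs do not overlap. The windows are Irs2 on the minus strand at chr8:11008880-11009179, Ppp1r3c on the minus strand at chr19:36736555-36736854, Pcx (first start) on the plus strand at chr19:4510222-4510521, and Pck1 on the plus strand at chr2:173152823-173153122.
Irs2: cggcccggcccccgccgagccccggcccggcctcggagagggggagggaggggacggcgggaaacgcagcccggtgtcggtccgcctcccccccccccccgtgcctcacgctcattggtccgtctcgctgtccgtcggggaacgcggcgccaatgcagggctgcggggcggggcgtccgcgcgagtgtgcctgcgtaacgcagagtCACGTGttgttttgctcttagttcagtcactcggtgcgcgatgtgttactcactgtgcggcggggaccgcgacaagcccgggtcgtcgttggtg
Ppp1r3c: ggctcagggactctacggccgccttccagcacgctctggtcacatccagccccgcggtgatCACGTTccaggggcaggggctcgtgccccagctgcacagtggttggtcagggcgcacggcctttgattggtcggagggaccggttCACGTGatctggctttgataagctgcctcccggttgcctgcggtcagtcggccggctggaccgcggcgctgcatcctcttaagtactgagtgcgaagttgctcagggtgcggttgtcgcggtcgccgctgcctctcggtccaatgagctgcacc
Pcx: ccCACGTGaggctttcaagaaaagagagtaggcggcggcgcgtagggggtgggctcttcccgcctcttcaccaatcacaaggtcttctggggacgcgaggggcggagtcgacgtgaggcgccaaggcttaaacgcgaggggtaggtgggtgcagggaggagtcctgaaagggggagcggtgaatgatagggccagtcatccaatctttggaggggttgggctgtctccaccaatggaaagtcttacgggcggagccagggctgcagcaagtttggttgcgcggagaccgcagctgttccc
Pck1: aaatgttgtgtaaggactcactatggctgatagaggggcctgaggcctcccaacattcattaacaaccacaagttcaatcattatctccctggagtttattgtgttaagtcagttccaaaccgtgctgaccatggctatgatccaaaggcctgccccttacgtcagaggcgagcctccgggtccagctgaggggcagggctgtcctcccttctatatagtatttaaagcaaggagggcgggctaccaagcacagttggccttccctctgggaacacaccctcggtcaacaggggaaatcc
The E-box began 44 bases before the start in Irs2, 104 before it in Ppp1r3c and 248 before it in Pcx. Ppp1r3c also held the E'-box CACGTT, 189 bases before the start. The Pck1 window held neither, nor did the windows of Slc2a2, of Ppargc1a and of the second Pcx start, which no interval overlapped. Of all 32851 RefSeq promoter windows, 7.15% held the E-box and 4.68% the E'-box. Among the 2322 windows overlapped by an interval the E-box share was 23.2%, and among the 841 overlapped in 2 or more libraries it was 30.1%. For the E'-box these shares were 9.13% and 9.63%.

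At the Irs2 promoter both peak summits lay on or within 1 base of the E-box. The interval chr8:11008798-11009256 was called in male misaligned ZT12 and female misaligned ZT0 and in none of the other 6 libraries. The summit lay on the E-box in male misaligned ZT12 and 1 base from it in female misaligned ZT0, 2 bases apart. Over the 859 intervals called in 2 libraries the median distance between summits was 55 bases. Of the 801 summits that fell inside a promoter window with an E-box, 18.0% were within 5 bases of it, with a median distance of 26 bases.

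At the Ppp1r3c promoter the summits stood closer to the E'-box than to the E-box. The interval chr19:36736658-36737189 was called in the same libraries as that of Irs2, male misaligned ZT12 and female misaligned ZT0. Both have long lists (5542 and 1330 peaks), and the share of intervals with this pattern was not counted. Summits lay 1 and 15 bases from the E'-box, and 79 and 65 bases from the E-box, in that order of libraries. The peak of female misaligned ZT0 did not reach the E-box. The summits were 14 bases apart.

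**Figure D1:**
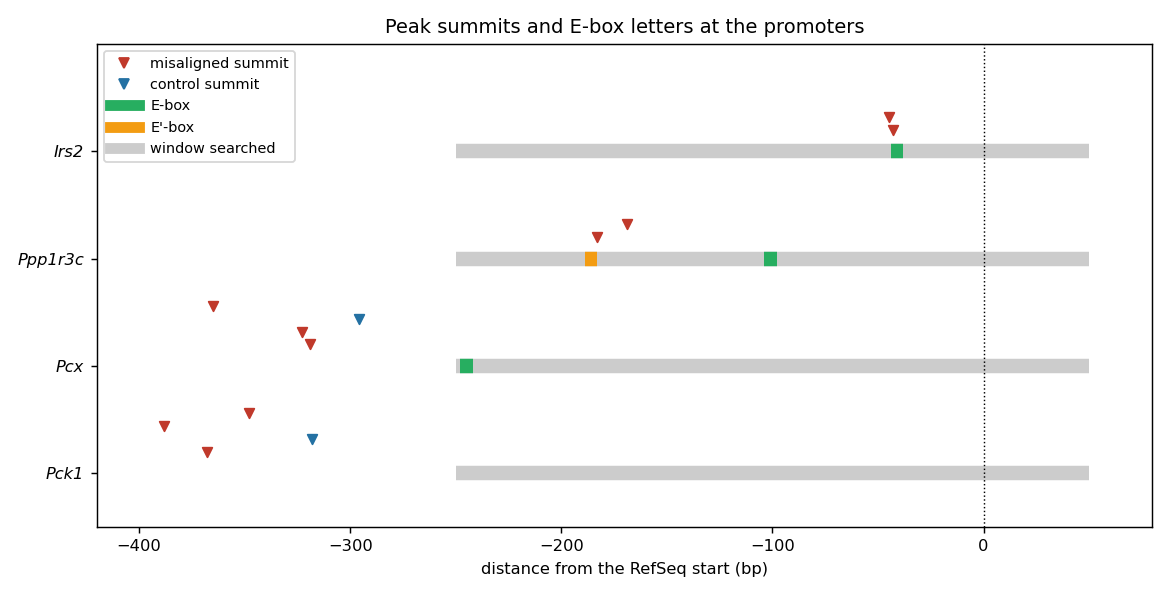
Distance of peak summits (triangles, red for misaligned and blue for control libraries) from the RefSeq start in bases, at 4 promoters; grey bars are the windows searched and coloured blocks the E-box (green) and E'-box (orange). The Irs2 summits sit on or within 1 base of the E-box and the Ppp1r3c summits nearer the E'-box, while those of Pcx and Pck1 lie upstream of the searched window.

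Of the gluconeogenic genes, Pck1 had a promoter interval in 4 libraries. The interval chr2:173152556-173152953 (centre 318 bases upstream of the start, 131 bases of the window covered) was called in male misaligned ZT12, male control ZT12, male misaligned ZT0 and female misaligned ZT0. To compare heights between lists, the fragments above local background at the summit were expressed in units of the list's lowest background, here called scaled height, with exact Poisson 95% intervals that cover counting error only. In males at ZT12 the scaled height at Pck1 was 4.83 (2.37 to 8.00) in misaligned liver and 5.25 (3.07 to 8.13) in control liver. At ZT0 it was 5.52 (3.18 to 8.57) in misaligned males and 5.21 (3.18 to 7.85) in misaligned females, with no peak called in the control library of either sex. The 4 heights thus lay within each other's counting error. In bulk liver, fewer bound cells and less binding per cell cannot be told apart.

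The authors' -log10 q at the Pck1 promoter did not follow these heights. It was 2.85 in male misaligned ZT12, 6.99 in male control ZT12, 6.06 in male misaligned ZT0 and 8.93 in female misaligned ZT0. The peak of male misaligned ZT12 held the most fragments of the 4, 34 against 29 to 33, over the highest local background, 13.5 fragments against 5.95 to 8.12. The 4 summits lay within 70 bases, against a median of 72 over the 150 intervals called in 4 libraries. Further intervals of Pck1 were found 9122 bases upstream of the start, in male misaligned ZT12 (-log10 q 3.47) and male misaligned ZT0 (7.14), and 7260 bases downstream of it, in male misaligned ZT0 (5.51).

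Pcx, by the authors' nearest gene, had 2 intervals, both in introns and both in male misaligned ZT12. They were chr19:4570375-4571169 (-log10 q 14.4, fold enrichment 5.58) and chr19:4588505-4588956 (16.9 and 6.50), which lay 23547 and 5588 bases upstream of the second RefSeq start, at 4594319. Each summit held 38 fragments. The interval over the first RefSeq start, at 4510472, is not among these 2, because the authors' table names it for 2010003K11Rik at -11528 bases, although it annotates the place as the promoter of Pcx.

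The interval at that first Pcx start, chr19:4509660-4510562, covered the whole promoter window shown above. It was chosen after its place was seen and is not counted with the 22. It was called in 4 libraries, with scaled heights of 15.2 (11.5 to 19.5) in male misaligned ZT12, 6.73 (4.28 to 9.90) in misaligned males at ZT0, 3.57 (1.95 to 5.68) in male control ZT0 and 9.38 (6.62 to 12.7) in female misaligned ZT0. In males at ZT0, the pair in which both libraries had a peak, the counting intervals overlapped. Its -log10 q of 43.7 in male misaligned ZT12 was above that of each of the 35 peaks counted, which ranged between 2.58 and 40.1. The summits lay 71, 75, 48 and 117 bases from the E-box in the order of libraries just given, and all 4 peaks contained it.

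Ppargc1a had 4 intervals, none within 20 kb of the RefSeq start of its promoter window (51567725 on chromosome 5, minus strand). The centres lay 30260 and 21930 bases downstream of that start and 24024 and 28096 bases upstream of it. The authors' distances, to another start, were 16427, 8096, -37858 and -41930 bases in the same order. By the 8096 bases, Ppargc1a has a peak in the counts within 10 kb given below. In male misaligned ZT12 all 4 were called, with -log10 q of 4.09, 11.2, 7.02 and 4.53 in that order. The last, chr5:51595640-51596002, was also called in male misaligned ZT0, where -log10 q was 8.95. The heights there were alike, with scaled values of 5.70 (3.12 to 8.99) in male misaligned ZT12 and 5.69 (3.43 to 8.65) in male misaligned ZT0. The table calls the upstream intervals intergenic, but in RefSeq they lie inside Ppargc1a, whose longest extent (chr5:51454249-52115853) begins further upstream. No Ppargc1a interval was called in a control or a female library, which also held for 75.6% of all intervals.

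Slc2a2 carried the interval of the set found in the most libraries. The interval chr3:28725054-28725522 was called in 6 of 8, all 4 male libraries, female control ZT12 and female misaligned ZT0. It lies in an intron 27385 bases from the RefSeq start, near the far end of the gene (chr3:28697903-28728361), where it also overlaps the non-coding gene 1700112D23Rik. The authors' distance of 3771 bases is to an internal transcript start.

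In males at ZT12, the Slc2a2 interval had 73 fragments at the summit in misaligned liver and 37 in control liver, with -log10 q of 40.1 and 9.02. The scaled height was 15.3 (11.6 to 19.7) in the misaligned and 6.61 (4.12 to 9.80) in the control library, so the counting intervals did not overlap. At ZT0 it was 5.40 (3.10 to 8.40) in misaligned males and 5.33 (3.50 to 7.65) in control males, which lay within counting error of each other. In females the peak was called on opposite sides at the 2 times. At ZT12 it was absent from the misaligned list and had a scaled height of 3.38 (1.73 to 5.58) in the control library, with -log10 q of 2.58. At ZT0 it had a scaled height of 5.38 (3.32 to 8.05) in the misaligned library, with -log10 q of 9.36, and was absent from the control list. These differences were not tested.

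The order of scaled heights at the Slc2a2 interval was male misaligned ZT12, male control ZT12, male misaligned ZT0, female misaligned ZT0, male control ZT0 and female control ZT12. The first stood clear of all the others by its counting interval, and each of the other 5 overlapped its neighbours. Heights were not compared over the 223 intervals called in both male ZT12 libraries. The difference is therefore not read as particular to Slc2a2. The 6 summits spread over 160 bases, against a median of 92.5 over the 48 intervals called in 6 libraries. Toward the start of the gene, 3 weaker intervals were called. They lay 883 bases from the RefSeq start (male misaligned ZT12, -log10 q 2.59), 7951 bases from it (male misaligned ZT12, 3.47) and 24012 bases from it (male misaligned ZT12, 7.15, and male misaligned ZT0, 4.92).

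**Figure D2:**
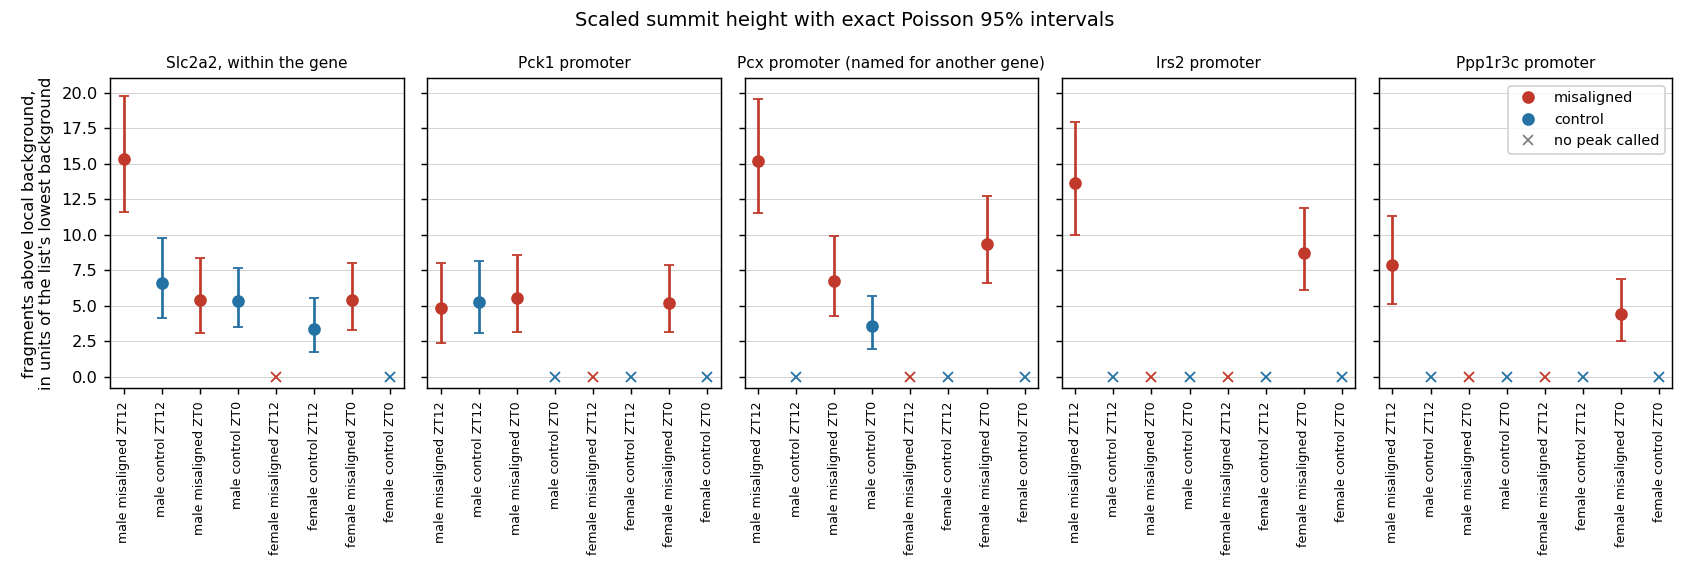
Scaled summit height (fragments above local background, in units of the lowest background of the list) with exact Poisson 95% intervals in the 8 libraries, misaligned in red and control in blue; a cross at 0 means that no peak was called, not a height of 0. By counting error alone, the male misaligned ZT12 point stands clear of the others at Slc2a2 (15.3 against 3.38 to 6.61), while the 4 Pck1 points overlap. Heights over all intervals were not compared.

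For glycogen, Ppp1r3c had 5 intervals in 3 libraries. At the promoter interval shown above, the scaled height was 7.87 (5.12 to 11.3) in male misaligned ZT12, with -log10 q of 12.4, and 4.42 (2.53 to 6.92) in female misaligned ZT0, with -log10 q of 6.29. A different site, chr19:36731441-36731775 at the end of the gene, was called in male control ZT0 and in no other library, with 50 fragments, a scaled height of 6.73 (4.64 to 9.31) and -log10 q of 17.2. The strongest site lay 23342 bases downstream of the start, chr19:36712975-36713548, called in male misaligned ZT12 with 67 fragments, a scaled height of 14.0 (10.4 to 18.2) and -log10 q of 35.3. At 30730 and 31472 bases downstream were 2 weaker intervals of the same library (3.76 and 5.04).

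For insulin signalling, the Irs2 promoter interval had 70 fragments and a scaled height of 13.6 (9.99 to 18.0) in male misaligned ZT12. In female misaligned ZT0 it had 52 fragments and a scaled height of 8.69 (6.09 to 11.9). The -log10 q values were 25.8 and 20.2, at ranks of 469 of 5542 and 187 of 1330 peaks. The other Irs2 intervals were called in 1 library each: 34594 bases downstream of the start (male misaligned ZT12, -log10 q 10.3), 845 bases upstream (male misaligned ZT12, 5.81) and 12540 bases upstream (female misaligned ZT0, 3.92). The upstream intervals and the promoter interval overlap the non-coding gene 9530052E02Rik, so the signal cannot be assigned to Irs2 rather than to it. No Irs2 interval was called in a control library, which also held for 6337 of all 7043 intervals.

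**Figure D3:**
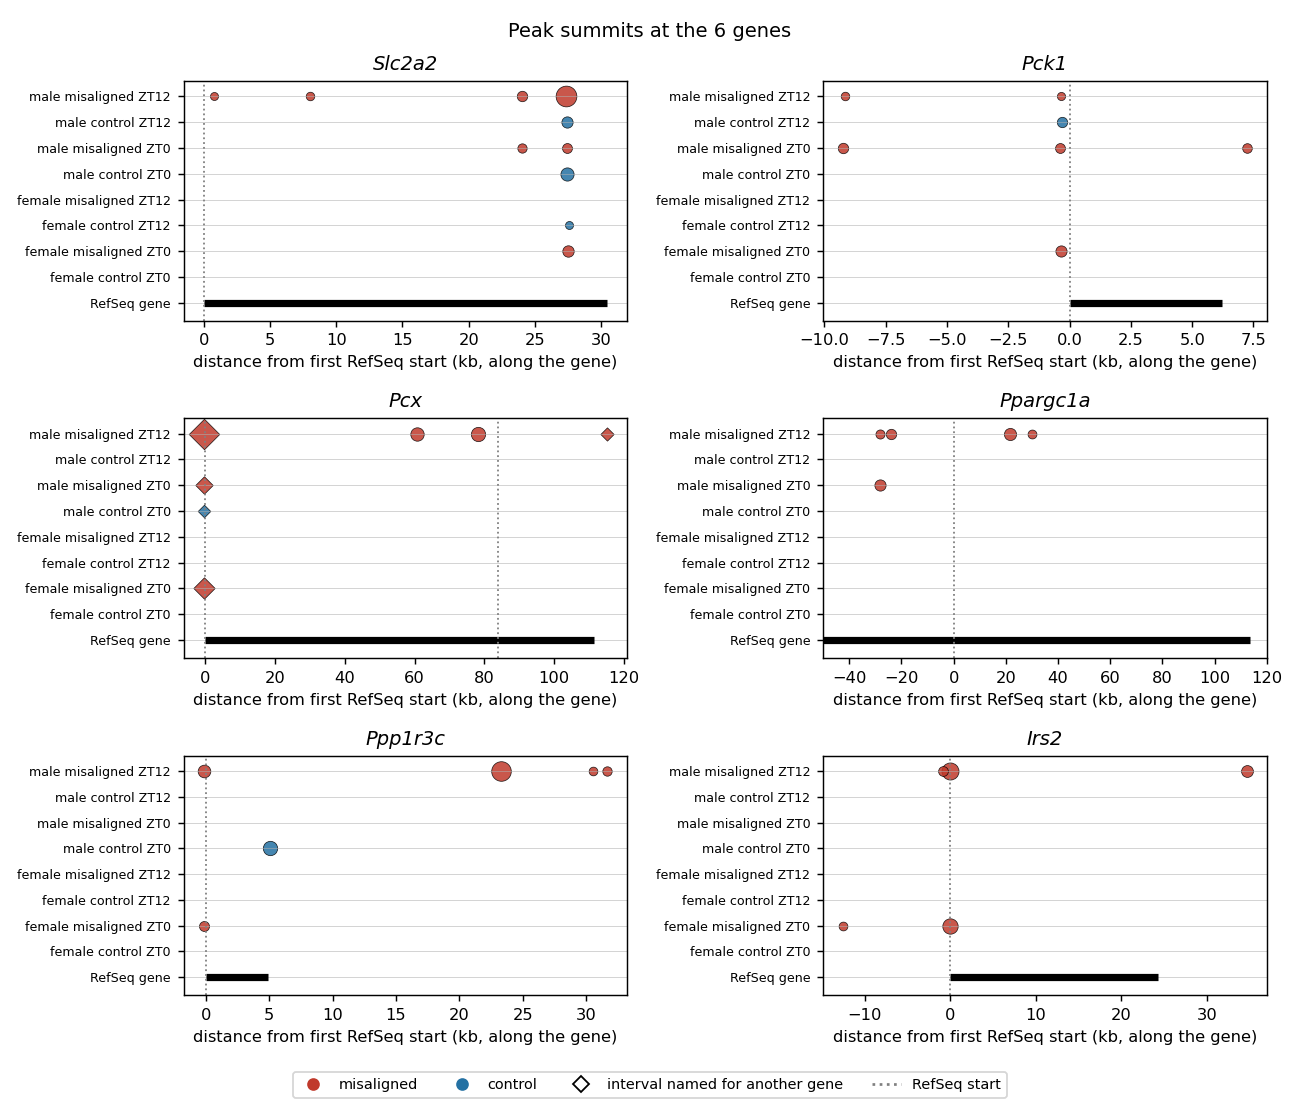
Peak summits along the 6 genes, by distance in kb from the first start with a RefSeq promoter window, in the direction of the gene. Each library has 1 row. Symbol area grows with the authors' -log10 q, and diamonds are intervals that the authors' table names for another gene. The black bar is the RefSeq gene. For Ppargc1a the bar runs on beyond the left edge, where a peak 301164 bases upstream is not drawn. Summits stack over libraries at the far end of Slc2a2 and at the starts of Pck1, Pcx, Ppp1r3c and Irs2.

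Over the 22 intervals, more were called in the 3 longest lists than in the other 5. In male misaligned ZT12, 19 of the 22 were called, where 78.7% of all intervals were. In male control ZT12 it was 2 of 22 (4.06% of all intervals). At ZT0 it was 6 in misaligned males (26.4%) and 2 in control males (5.21%). In females it was 0 in misaligned ZT12 (3.08% of all intervals), 1 in control ZT12 (1.96%), 5 in misaligned ZT0 (18.8%) and 0 in control ZT0 (3.17%). The members' shares therefore stood near the background of each library, and no share is read as particular to these genes. In that order of libraries, the genes with a peak numbered 6, 2, 3, 2, 0, 1, 4 and 0.

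**Figure D4:**
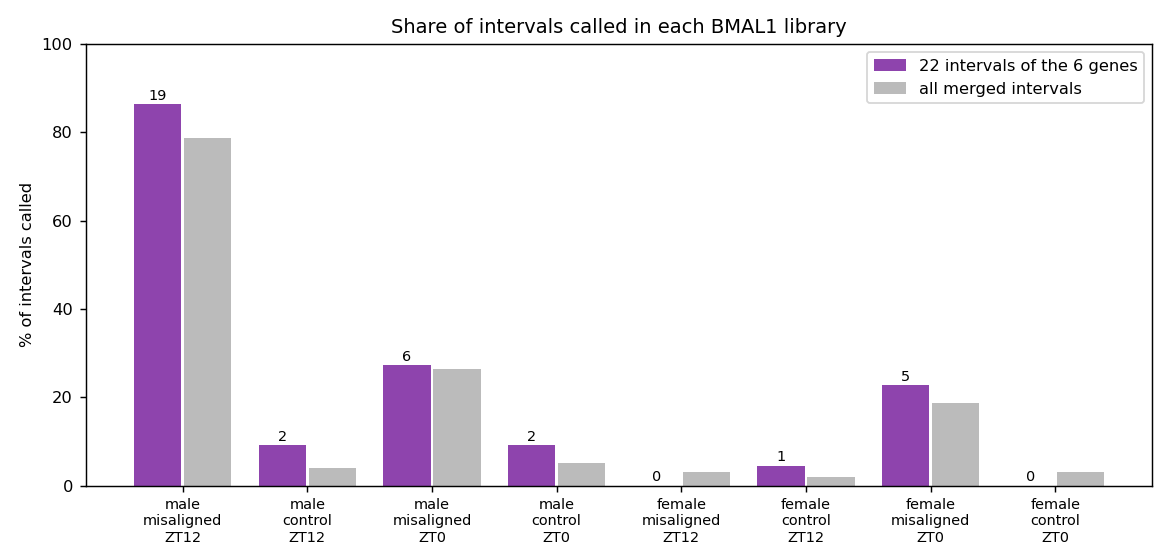
Percentage of intervals called in each BMAL1 library, for the 22 intervals of the 6 genes (purple, with their number above) and for all 7043 intervals (grey). Both are highest in male misaligned ZT12, with 19 of the 22 and 78.7% of all intervals.

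Set by pair, 17 of the 22 intervals had a peak on the misaligned side alone in males at ZT12, against 75.5% of all intervals, while 0 had one on the control side alone (0.895% of all) and 2 had one on both (3.17%). In males at ZT0 the counts were 5 on the misaligned side alone (22.6% of all intervals), 1 on the control side alone (1.42%) and 1 on both (3.79%). In females at ZT12 they were 0 (2.09%), 1 (0.965%) and 0 (0.994%), and at ZT0 5 (17.6%), 0 (1.95%) and 0 (1.22%). Nothing particular to these genes is read from counts of 0 to 2. The exceptions to the misaligned side were the Ppp1r3c site at the end of the gene in males at ZT0 and the Slc2a2 interval in females at ZT12.

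Of the 22 intervals, 7 were called in 2 or more libraries, against 21.5% of all intervals. The 7 were 2 each of Slc2a2 and Pck1 and 1 each of Ppargc1a, Ppp1r3c and Irs2. Of the 15 found in 1 library, 12 were in male misaligned ZT12, which held 74.3% of all intervals found in 1 library. Without that library 10 of the 22 intervals remained, against 41.7% of all intervals, and 5 of the 6 genes, Pcx being lost. Of these 10, 2 were called in 2 or more libraries, against 24.6% of all that remained. By the authors' annotation 11 intervals lay in introns, 6 were intergenic, 4 at promoters and 1 at a gene end, against 33.5% introns, 24.3% intergenic, 33.6% promoters and 3.69% gene ends among all intervals. Of the 4 promoter calls, the 1 at 30730 bases from Ppp1r3c belongs to another gene model. Introns of other gene models hold the intervals 31472 bases from Ppp1r3c and 845 and 12540 bases from Irs2. The local background under the 35 peaks was 1 to 3.66 times the lowest of its list, and fold enrichment ranged between 2.42 and 8.41.

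**Figure D5:**
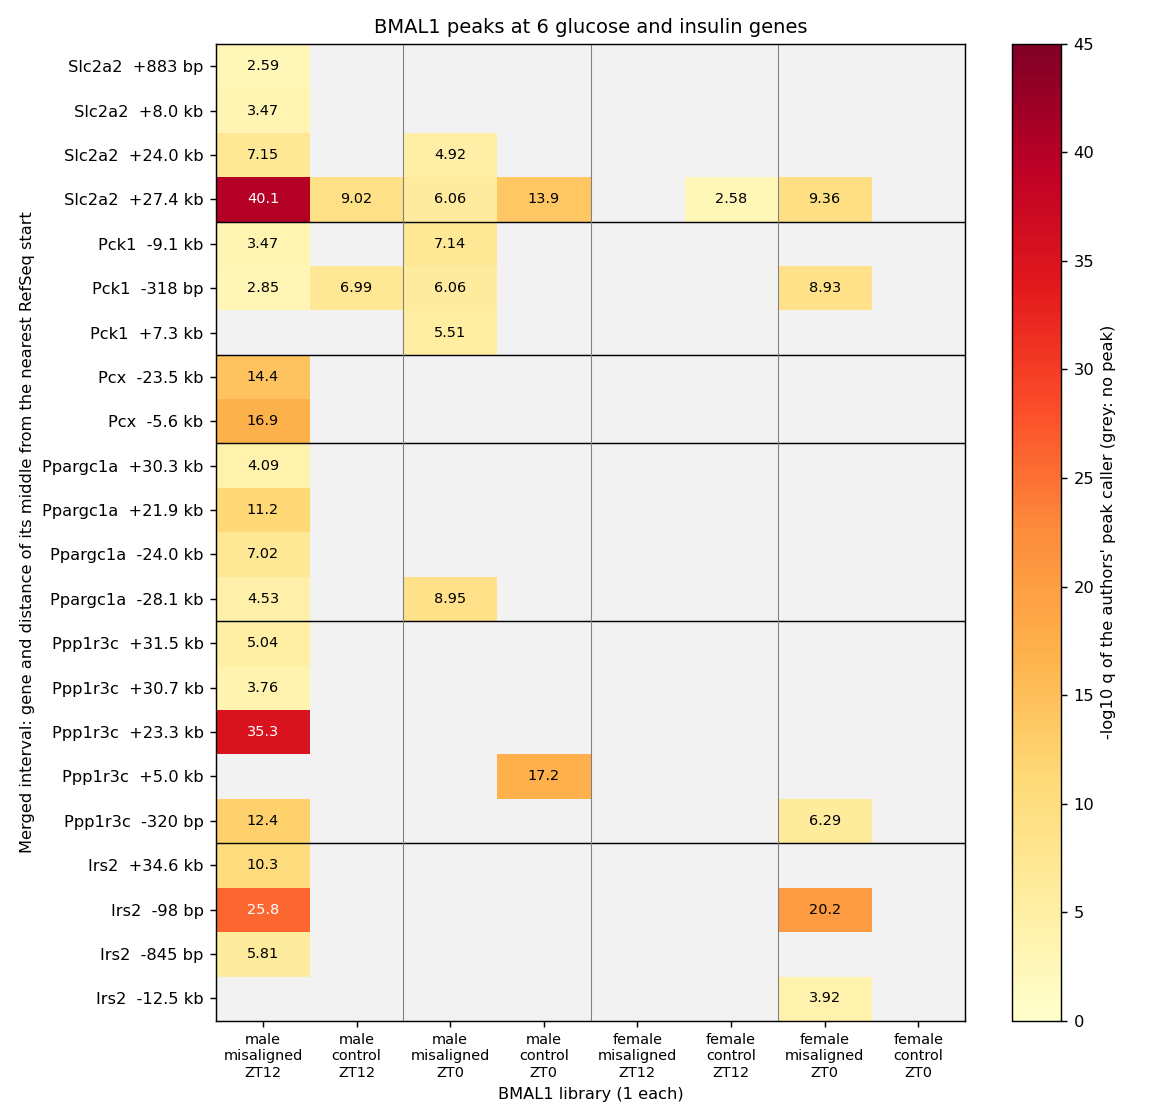
The authors' -log10 q of the peak at each of the 22 intervals (rows, by gene and distance of the centre from the nearest RefSeq start) in the 8 BMAL1 libraries (columns); grey means no peak. The male misaligned ZT12 column holds 19 values, and the Slc2a2 row at the far end of the gene holds 6.

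The 6 genes were set within 53 genes of glucose and insulin handling, in 5 roles. Here a gene was counted where a peak named for it lay within 10 kb of the authors' start. In males at ZT12 the count was 19 in misaligned liver, where 8.9% of 21900 protein-coding genes had such a peak, and 2 in control liver (0.484%). At ZT0 it was 6 in misaligned (3.52%) and 3 in control males (0.804%). In females at ZT12 it was 0 in misaligned (0.457%) and 1 in control liver (0.242%), and at ZT0 8 in misaligned (2.94%) and 0 in control liver (0.411%). Without the 6 genes, 47 remained, of which 13, 0, 4, 1, 0, 0, 4 and 0 were counted in the same order of libraries. The list had been drawn up with results of these data known, so counts above the background share give no independent support.

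By role, 4 of 7 genes of gluconeogenesis and glucose release had such a peak in at least 1 library (11.1% of all protein-coding genes), 1 of 11 of glycolysis, 3 of 9 of glycogen, 7 of 15 of insulin signalling and 5 of 11 of glucagon, cAMP and transcriptional control. These counts include the 6 genes, which were chosen on their peaks. In the first role they are Pcx, Pck1 and Slc2a2, which leaves G6pc. Ppp1r3c is counted under glycogen, Irs2 under insulin signalling and Ppargc1a under the last role. The counts by role are therefore not read as enrichment. Among the 47 others, 6 had one in 2 or more libraries, against 3.45% of all protein-coding genes. Prkaca, the catalytic subunit of protein kinase A that carries the glucagon signal, had a promoter peak in 4 libraries, with -log10 q of 29.9 in female misaligned ZT0 and 10.8 in male control ZT0. Gbe1, the glycogen branching enzyme, had one 89 bases from the start in male misaligned ZT12 (24.2) and female misaligned ZT0 (11.9). These were also the libraries of the Irs2 and Ppp1r3c promoters. Both have long lists, and the share of genes with this pattern was not counted. Trib1, a pseudokinase, had peaks in male misaligned ZT12 (22.0) and male misaligned ZT0 (7.83). Irs1, the sister substrate of Irs2, and Akt2, an insulin-responsive kinase, were called in the same libraries as Trib1, with highest -log10 q of 9.04 and 3.50. Nr3c1, the glucocorticoid receptor, was called in male misaligned ZT12 and female misaligned ZT0, with a highest value of 7.51.

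Some genes central to these roles had no peak named for them in any library, among them Pygl, the liver glycogen phosphorylase, Foxo1, and Gcgr, the glucagon receptor. G6pc, the catalytic subunit that releases free glucose, was named for peaks in 6 libraries at any distance and in male misaligned ZT12 alone within 10 kb (-log10 q 6.25).

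Likeness of pattern was measured as the number of the 8 libraries in which a gene's call within 10 kb differed, over 485 genes called in at least 3 libraries. The Slc2a2 pattern was shared in full by Slc2a5, a fructose transporter, Inmt and Rsad1, and 40 more genes differed from it in 1 library. The Pck1 pattern was shared in full by 13 genes, of which Ypel5 and Dgat2, an enzyme of triglyceride synthesis, had the highest -log10 q (73.6 and 61.6). Another 188 of the 485 genes differed from the Pck1 pattern in 1 library, so it was a common one. The Ppp1r3c pattern was shared in full by 23 genes, among them Xpot, L3hypdh and Cuta, and 61 more differed from it in 1 library. The Ppp1r3c pattern joins different sites, the gene end in male control ZT0 and the promoter in the misaligned libraries.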

How the data were processed

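BMAL1 chromatin immunoprecipitation with a rabbit monoclonal antibody was made from sonicated, formaldehyde-fixed liver, per the labels' protocols. The submitters' processing notes name BWA 0.7.17-r1188, MACS2 2.2.7.1 and the build GRCm38. The q threshold, the genome size and whether IgG served as control are not given in the sources used here. Each BMAL1 library has 1 deposited list. Its columns, made by the authors' peak caller, are a score, the fold enrichment (ratio) of the summit, -log10 p, and -log10 q. A deposited table merges the 9986 peaks into 7043 intervals with a call per library, a count of libraries, the nearest gene and the distance to 1 transcript start. Its calls were checked against the lists, and 0 differed.

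Whole fragments and local background at each summit were solved for from the fold and -log10 p columns with a relative tolerance of 0.0001, which succeeded for 99.1% to 100% of peaks per list and for all 35 described. On simulated data this was correct for 915 of 915 peaks, and assignment of peaks to intervals for 300 of 300. The simulated peaks were made with the same formulas that were solved. They check the calculation and not the authors' peak caller. Because fold and q vary with depth, heights were scaled by the lowest background of each list, which rested on 5 peaks in female control ZT12 and 7 in female misaligned ZT12. Poisson intervals have 95% confidence and cover counting error only. A peak counts as overlapping at 1 base or more. Starts, gene extents and promoter sequences are from RefSeq (GRCm38.p6), where all 6 genes and all 53 genes of the wider list matched; no genome sequence was used, so motifs outside promoter windows were not searched. Python 3.11.15, numpy 2.4.6, pandas 2.3.3, scipy 1.17.1 and matplotlib 3.10.9 were used.

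The 6 genes and the lists were chosen with earlier results of these data known. The genes named are the 6 in all their intervals, genes of the wider list with a peak in 2 or more libraries or among the 3 highest -log10 q of a library, and for likeness up to 8 genes per member with the fewest differing libraries, ties broken by -log10 q. The examples without a peak, G6pc, and the interval at the first Pcx start were chosen after their values were seen. Alternatives were the distance to the start, a higher q threshold, the overlap rule, equal list lengths, peaks of high background left out and RefSeq gene bodies. Added after seeing the data were RefSeq promoter windows and leaving out male misaligned ZT12. Groups were taken from the labels and no test was run: each group has 1 library and the genes were chosen on these calls.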

Additional observations from a re-analysis of the deposited data

Results flagged for a closer look

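At 2 sites the misaligned library stood on opposite sides of its control in different strata, in scaled height, where an uncalled library counts only as lower. At the Pck1 promoter in males, the misaligned minus control difference was -0.426 at ZT12 (4.83 in misaligned and 5.25 in control liver), within counting error, while at ZT0 the misaligned library had a peak (5.52) and the control library had none. At the Slc2a2 interval at the far end of the gene, the difference at ZT12 was 8.71 in males (15.3 in misaligned and 6.61 in control liver), while in females the peak was called in the control library alone. In females the same interval was called on the control side at ZT12 with a height of 3.38, and on the misaligned side at ZT0 with 5.38. The female control ZT12 peak ranked 130 of 141 in its list. These differences between strata were not tested.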

How the results depend on the processing

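Of 115 alternative values, 85 stayed within 1.5 times the reported count. Some of these could not move, so the 85 does not measure robustness. A stricter setting cannot lower a reported count of 0. The cut at a local background of 5 times the lowest removed no member peak, as their highest was 3.66 times. Each peak lay inside the interval merged from it, so the rule of 50% overlap could remove none. No paired test was run. Each pair of the same sex and time has 1 library a side, and the genes were chosen on these calls. The replicate number gives no block, as all libraries carry the same number, and the counts come from no test. Misaligned and control libraries of the same sex and time are set side by side in the report. With every list shortened to its 141 strongest peaks, the members' genes with a peak fell to 0 in male misaligned ZT12, male control ZT12, male misaligned ZT0 and female misaligned ZT0, and the wider list's count was 0 in the first 3 and 1 in the last. Members then numbered 2 in male control ZT0 (Slc2a2 and Ppp1r3c), 1 in female control ZT12 (Slc2a2) and 0 in the other female libraries, so that the members' peaks left were all in control libraries. The cut was unequal, as the female control ZT12 list has 141 peaks and lost none. In male misaligned ZT12 the Slc2a2 peak, with -log10 q of 40.1, ranked 234 of 5542 and was cut. Within 1 kb of the authors' start, members numbered 1 in male control ZT12, 0 in male control ZT0 and 0 in female control ZT12, and wider list genes 1, 1 and 0. By RefSeq promoter windows members numbered 1 in male control ZT12, 1 in male control ZT0 and 0 in female control ZT12. That setting took peaks named for any gene. The member in male control ZT0 was Pcx, by the interval at its first start, which is outside the 22. At -log10 q of at least 3 or 5, the 1 member of female control ZT12 (Slc2a2) gave 0, as did its interval and wider list count at 3. At any distance, the wider list gave 6 in male control ZT12, 16 in male misaligned ZT0, 7 in male control ZT0, 3 in female misaligned ZT12, 2 in female control ZT12, 13 in female misaligned ZT0 and 1 in female control ZT0. The share of all genes was computed for 10 kb only. Gene counts under the other settings thus show how the counts depend on the setting, and are not read against a background. Without male misaligned ZT12, 10 of 22 intervals remained and 2 were called in 2 or more libraries. Shortening removes peaks by construction; other causes were not tested. Depth is unknown, and a site with under 14 to 22 fragments, by list, could not be called.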
